A study of Mus musculus with 5 samples.

Results

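The genes described here are 35 markers of cell proliferation, chosen by symbol from the 14161 genes listed in any of 5 mouse RNA-seq libraries. They were split by the phase of the cell cycle in which their products act: 12 S-phase genes and 23 mitotic genes. RNA came from cells described as cultured mesenchymal stem cells, stromal precursors of the skeleton. The cells were grown from femur marrow of C57BL/6 mice 6 to 8 weeks old. The 3 Bmal1-knockout libraries were set against 2 wild type libraries, all at passages 1 to 3 in medium with 12% serum. The product of Bmal1 (Arntl in the tables) forms with CLOCK the activator of the circadian clock. The sources used here do not give the deleted stretch, the cells in which it was deleted, or the number of animals.

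A cell that divides first licenses its replication origins with CDC6 and CDT1, which load the MCM helicase, and then copies its DNA with nucleotides made by ribonucleotide reductase and thymidylate synthase. It enters mitosis when cyclins A and B activate CDK1. Aurora and polo kinases, kinesins and spindle proteins then build the spindle, BUB proteins watch the kinetochores, and the anaphase-promoting complex with CDC20 and UBE2C ends the phase by destroying the cyclins. S-phase genes are driven mainly by E2F factors. Mitotic genes are driven by the MuvB complex with B-MYB and FOXM1, which binds the CHR element, together with NF-Y at CCAAT boxes. Cells in culture divide at a rate that depends on passage, density and serum, and the circadian clock is known to gate steps of the cycle in several tissues.

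Promoter sequences show what these genes share beyond the rule that chose them, and the Tyms promoter is given because Tyms carries most of the S-phase counts and was called higher in the knockout libraries. RefSeq windows of 250 bases before to 50 bases after the start (GRCm38.p6) were matched for 29 of the 35 members. No window was matched for Aurkb, Ccna2, Foxm1, Kif20a, Mcm4 and Tpx2, so these were not searched for any motif. The CHR element TTTGAA was found in 13 of 18 mitotic genes (72.2%) and 1 of 11 S-phase genes (9.1%), against 17.89% of 32851 windows of all genes. A CCAAT box was found in 16 mitotic genes (88.9%) and 8 S-phase genes (72.7%), against 37.41% of all windows. The E2F letters TTTGGCGC or TTTCCCGC stood in 6 S-phase genes (54.5%) and 0 mitotic genes, against 1.56% of all windows, and the letters GGCGGGAA, which can overlap them, in 2 S-phase genes (18.2%) and 0 mitotic genes, against 2.19%. The E-box CACGTG, which CLOCK and BMAL1 bind and which MYC and USF factors bind as well, was found in 1 of the 29 members, Tyms. That is 1 of 11 S-phase genes (9.1%) and 0 of 18 mitotic genes, against 7.15% of all windows. Every motif was searched on both strands, and a match is a run of letters and not a shown binding site. The 3 windows below are read 5′ to 3′ along the gene, all on the minus strand, with motif matches in capitals. Mki67 and Cdk1 are shown as the mitotic pattern of CCAAT boxes (ATTGG on the other strand) with CHR elements.
Tyms, chr5:30073576-30073875: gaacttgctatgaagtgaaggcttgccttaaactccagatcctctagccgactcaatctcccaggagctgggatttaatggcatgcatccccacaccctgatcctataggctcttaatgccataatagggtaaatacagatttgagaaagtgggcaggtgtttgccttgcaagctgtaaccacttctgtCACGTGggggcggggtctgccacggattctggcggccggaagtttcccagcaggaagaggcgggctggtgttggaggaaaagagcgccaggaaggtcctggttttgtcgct
Mki67, chr7:135716330-135716629: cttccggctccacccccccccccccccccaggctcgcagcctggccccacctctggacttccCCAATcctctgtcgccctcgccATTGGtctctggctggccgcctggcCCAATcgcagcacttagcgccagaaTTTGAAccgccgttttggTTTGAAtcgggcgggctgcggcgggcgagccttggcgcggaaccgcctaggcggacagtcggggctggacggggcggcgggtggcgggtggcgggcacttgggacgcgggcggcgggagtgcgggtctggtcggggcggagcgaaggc
Cdk1, chr10:69352863-69353162: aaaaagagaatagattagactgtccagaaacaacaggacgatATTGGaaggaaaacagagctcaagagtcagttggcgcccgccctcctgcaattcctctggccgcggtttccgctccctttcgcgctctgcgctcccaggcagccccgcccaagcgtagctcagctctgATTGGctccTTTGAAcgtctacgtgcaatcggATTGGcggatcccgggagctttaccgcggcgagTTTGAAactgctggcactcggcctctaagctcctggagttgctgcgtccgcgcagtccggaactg
Distances are from the start used for each window, which for Tyms and Mki67 lies inside the RefSeq span of the gene. The E-box of Tyms begins 61 bases before that start. The CHR elements of Cdk1 begin 71 and 15 bases before its start, and those of Mki67 116 and 98 bases before its start.

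The libraries were shallow. Expected counts, the estimated reads per gene, summed to 226695, 237088 and 281990 in knockout cells, against 243072 and 211623 in wild type cells. Levels are counts per 1e6 counts (CPM) over the scaled totals of the tested genes, so the limit set by a count of 0 in 1 library was between 12.1 and 15.9 CPM (3 counts, counting error only). For Arntl itself the knockout libraries held 4, 1 and 2 counts and the wild type libraries 5 and 0, too few to check the labels. Summed marker genes of 2 cell types were abundant and differed between the genotypes. The 12 stromal markers, Col3a1 and Col1a2 the highest, summed to 10392 to 11060 CPM in the knockout and 4022 to 4172 CPM in the wild type libraries. Of these, 4 rose (Col1a1, Col1a2, Col3a1 and Cxcl12), and the collagen genes among them held most of the sum. None fell, and 4 of the 8 tested did not pass. Their log2 fold changes were -0.34 for Pdgfra, -0.22 for Ly6a, 0.15 for Pdgfrb and 0.82 for Vcam1, so the sum mainly gives collagen levels. The untested markers Thy1, Eng, Nt5e and Lepr each had at most 8 counts in any library, and their groups overlapped. The 13 macrophage markers, Lyz2 and Ctss the highest, summed to 9935 to 11136 CPM in the knockout and 16051 to 16378 CPM in the wild type libraries. All 13 were present in every library and tested, with 8 lower, none higher and 5 that did not pass. The log2 fold changes of those 5 were 0.18 for Mrc1, -0.31 for C1qc, -0.40 for Ptprc, -0.46 for C1qb and -0.48 for Fcgr3. Over all 3710 genes tested, 8.19% were called higher and 8.14% lower. Erythroid and neutrophil markers each summed to at most 3 counts in any library, and lymphoid markers to at most 10. The part of this cell mixture in the proliferation results was not tested. In bulk RNA fewer cells of a type and less RNA per cell cannot be told apart.

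Most proliferation genes were near the limit of detection, and 3 genes held most of the counts. Of the 35 members 34 were listed in at least 1 library and 15 in all 5, and 23 had fewer than 15 counts over the 5 libraries together. Cenpa, the centromere histone, had no row in the tables and was taken as 0. Tyms, Ccna2 and Kif20a supplied 1408 of the 1897 counts (74.2%). On the scale of deposited FPKM, which accounts for gene length, Tyms averaged 189.62 FPKM over the 5 libraries, Ccna2 59.05 and Kif20a 36.43, at percentiles 98.3, 94.4 and 91.2 of all listed genes. The median member among the other 32 averaged 2.22 FPKM, and the highest of them, Pcna, 34.67 FPKM. Genes that act beside the abundant ones were far lower: Ccnb1, the mitotic cyclin B, averaged 2.46 FPKM, Cdk1, the kinase it activates, 3.44 FPKM, and Rrm2, the S-phase subunit of ribonucleotide reductase, 2.82 FPKM.

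**Figure D1:**
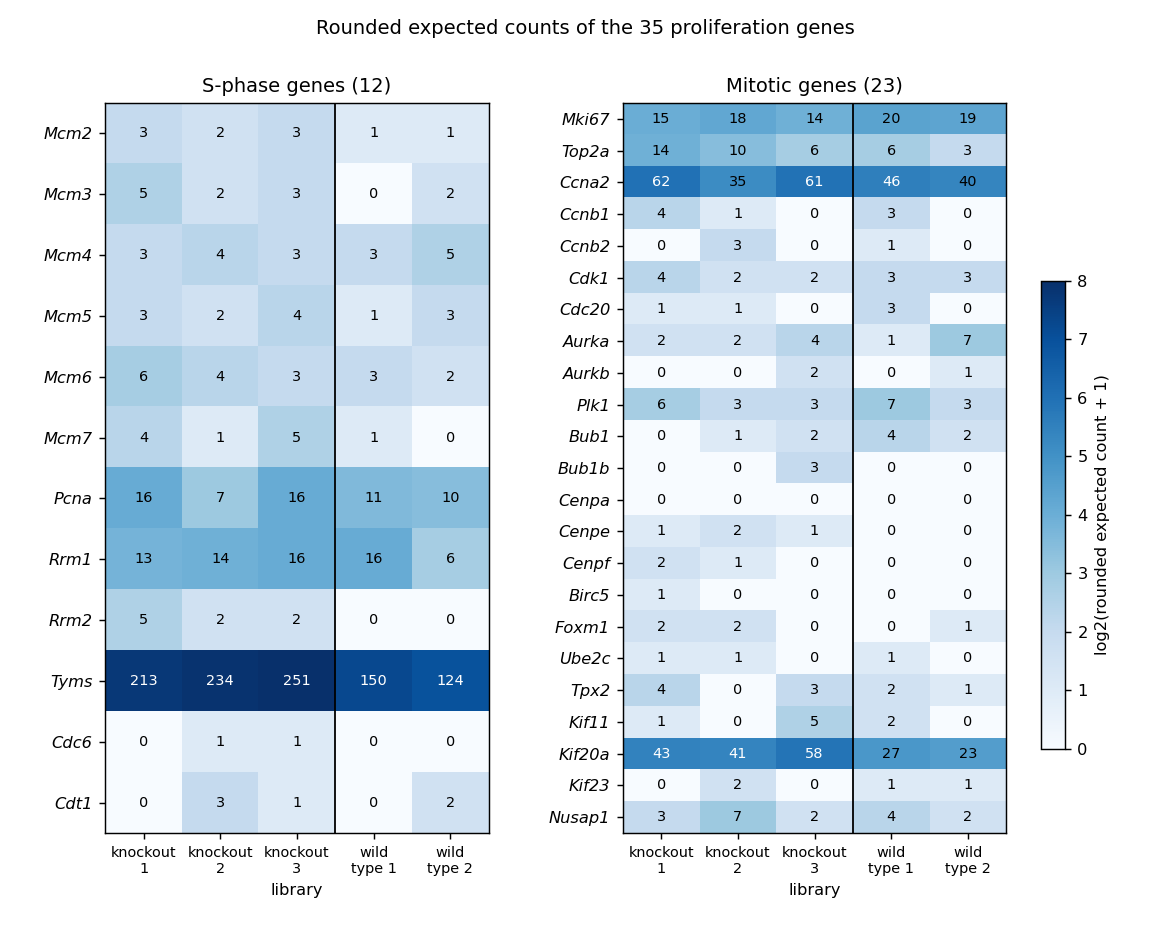
Rounded expected counts of each S-phase gene (left) and mitotic gene (right), one row per gene and one column per library, with the 3 knockout libraries left of the line and the 2 wild type libraries right of it. Shade shows log2(count + 1). Tyms, Ccna2 and Kif20a stand out in all 5 libraries, and most other rows hold fewer than 10 counts per library.

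The S-phase sum was higher in the knockout libraries. Its 12 genes gave 271, 276 and 308 counts in the knockout libraries, or 1302.0, 1312.0 and 1246.2 CPM, against 186 and 155 counts in the wild type libraries, or 873.8 and 823.8 CPM. All 3 knockout libraries lay above both wild type libraries. The mean was 1286.7 ± 35.5 CPM (SD, n = 3) in the knockout and 848.8 ± 35.4 CPM (SD, n = 2) in the wild type. The ratio of summed counts was 1.51, and its 95% exact Poisson interval, which covers counting error only, ran from 1.33 to 1.72. No p is given for a sum, because its members were chosen with results of these data known. Tyms made up 78.6% to 84.8% of this sum in the knockout and 80.0% to 80.6% in the wild type libraries, so the sum mainly gives the level of 1 gene.

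Without Tyms the other 11 S-phase genes gave 58, 42 and 57 counts in knockout cells, against 36 and 31 in wild type cells. The level was 236.3 ± 39.8 CPM in the knockout (SD, n = 3) and 166.9 ± 3.1 CPM in the wild type (SD, n = 2). Again all knockout libraries lay above the wild type ones, and the ratio was 1.41 (1.05 to 1.91, counting error only). Of these 11 genes 10 had a higher summed level in the knockout and 1, Mcm4, in the wild type. Several of these directions rest on very few counts, and the share of all genes at such counts was not taken. The 10 are therefore not read as a lean. Taken singly, 1 of the 11 genes, Rrm2, had an interval that left out a ratio of 1.

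**Figure D2:**
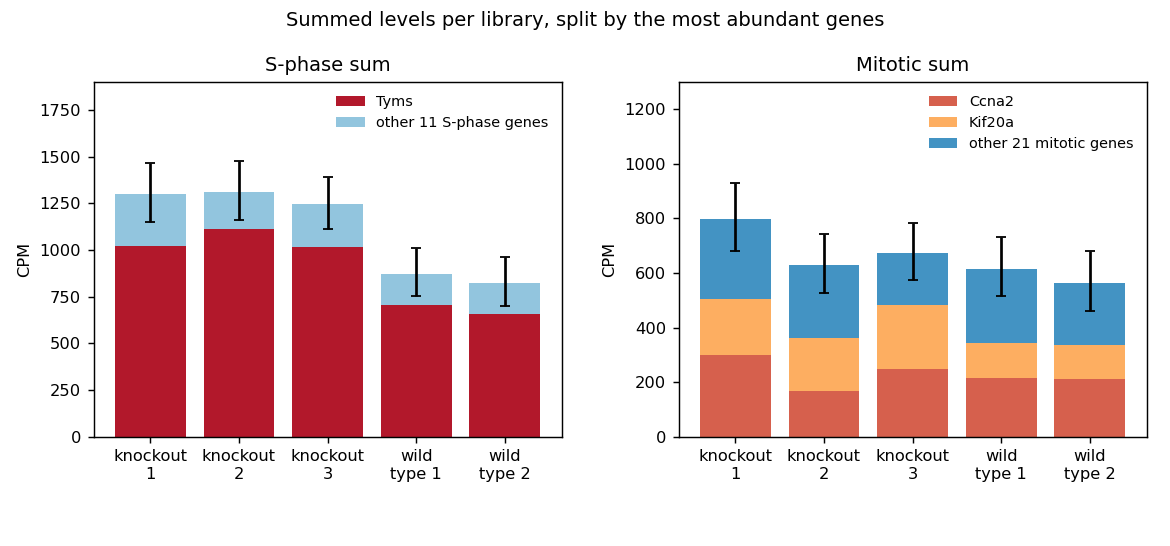
Summed level in CPM of the S-phase genes (left) and the mitotic genes (right) in each library, knockout libraries first, with the most abundant genes drawn as separate segments. Error bars show exact 95% Poisson intervals of the whole sum, for counting error only. The S-phase bars are 1246.2 to 1312.0 CPM in the knockout and 823.8 to 873.8 CPM in the wild type, and Tyms fills most of each.

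The mitotic sum differed less. Its 23 genes gave 166, 132 and 166 counts in knockout cells, against 131 and 106 in wild type cells, which is 797.5, 627.5 and 671.7 CPM against 615.4 and 563.4 CPM. The lowest knockout library lay just above the higher wild type library. The mean was 698.9 ± 88.2 CPM (SD, n = 3) in the knockout and 589.4 ± 36.8 CPM (SD, n = 2) in the wild type, and the ratio of summed counts was 1.18 (1.01 to 1.39, counting error only). Ccna2 and Kif20a made up 57.6% to 71.7% of the sum in the knockout and 55.7% to 59.4% in the wild type libraries. The other 21 mitotic genes had 61, 56 and 47 counts in knockout cells, against 58 and 43 in wild type cells. Their level was 249.8 ± 53.4 CPM in the knockout and 250.5 ± 31.1 CPM in the wild type, with overlapping groups. The ratio without Ccna2 and Kif20a was 0.98, and its interval of 0.76 to 1.27 bounds what counting error alone allows.

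Within a library the mitotic sum over the S-phase sum needs no scaling. It was 0.61, 0.48 and 0.54 in knockout cells, against 0.70 and 0.68 in wild type cells. All knockout values lay below the wild type ones, also without Tyms, Ccna2 and Kif20a, where they were 1.05, 1.33 and 0.82 in knockout cells, against 1.61 and 1.39 in wild type cells. The odds ratio of mitotic to S-phase counts, knockout over wild type, was 0.78 (0.64 to 0.96) with all genes and 0.69 (0.47 to 1.03) without those 3, so the second interval includes 1. Both intervals cover counting error only. Over the tested genes as a whole replicates differed by more than that, which was not measured for these ratios.

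Gene by gene, 7 of the 35 members had enough counts for the test across all genes (edgeR's quasi-likelihood test with Benjamini-Hochberg adjustment), and 28 did not. Of the 7, 2 rose, none fell and 5 did not pass. Over all 3710 genes tested, 8.19% were called higher, 8.14% lower and 16.3% in either direction. The median log2 fold change was 0.24 over the 7 and 0.01 over all genes tested, and the 7 are not a sample of the 35. On the CPM scale the groups did not overlap for 8 members. In 6 of them (Mcm2, Mcm7, Rrm2, Tyms, Cenpe and Kif20a) all knockout libraries were above both wild type libraries, a separation found in 12.4% of all 14161 genes. In the other 2 (Mki67 and Bub1) they were below, as in 12.7% of all genes. For Mcm7 and Bub1 the separation rests on library scaling of equal counts. Mcm7 had 1 count in knockout 2 (4.8 CPM) and 1 in wild type 1 (4.7 CPM). Bub1 had 2 counts in knockout 3 (8.1 CPM) and 2 in wild type 2 (10.6 CPM).

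Tyms (Entrez gene 22171, chromosome 5, 30038546 to 30073645 in RefSeq, GRCm38.p6) encodes thymidylate synthase, which makes the thymidine nucleotide for DNA. It had 212.72, 233.64 and 251.46 expected counts in knockout cells, against 150.33 and 124.26 in wild type cells. Every knockout library was above both wild type libraries. The level was 1050.4 ± 53.8 CPM in the knockout (SD, n = 3) and 681.9 ± 32.3 CPM in the wild type (SD, n = 2). Tyms rose 1.54-fold (log2 fold change 0.62, SE 0.14; edgeR adjusted p = 0.000146), and the call was lost without wild type 2 (0.57, adjusted p = 0.0588). The deposited counts of Tyms are not whole in any library. In the longest GENCODE transcript of Tyms, 177 of 3884 bases match transcripts of Gm35419 and Atp2b1 at 98% identity or more over at least 50 bases. No exon of another gene lies opposite Tyms exons in that annotation.

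Rrm1, the large subunit of ribonucleotide reductase, had 13, 14 and 16 counts in knockout cells, against 16 and 6 in wild type cells. Its groups overlapped, and it did not pass (log2 fold change 0.24, SE 0.42; edgeR adjusted p = 0.767). Its sign turned without wild type 2 (-0.22). Rrm2, the subunit made in S phase, had 5, 2 and 2 counts in the knockout and 0 in both wild type libraries. The exact Poisson interval of its ratio began at 1.19 and had no upper limit (counting error only), it was too low for the edgeR test, and 193 of its bases match Gm48445. Pcna, the sliding clamp of DNA polymerases, had 16, 7 and 16 counts in knockout cells, against 11 and 10 in wild type cells. Knockout 2 was the lowest library and the other knockout libraries were the highest, so the groups overlapped. It did not pass (0.16, SE 0.44; edgeR adjusted p = 0.862), and without knockout 1 its log2 fold change was -0.06. A stretch of 781 bases of Pcna matches the pseudogene Pcna-ps2.

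The 6 MCM genes, whose products form the ring helicase of replication, were each low, with 10 to 18 counts over the 5 libraries. Summed, they had 24, 15 and 21 counts in knockout cells, against 9 and 13 in wild type cells. The lowest knockout library, at 71.3 CPM, stood close to the higher wild type library, at 69.1 CPM. The ratio of the MCM sum was 1.64 (0.99 to 2.81, counting error only). Mcm7 had 4, 1 and 5 counts against 1 and 0 in the wild type, and 385 of its exon bases lie opposite Ap4m1 and Cops6. Cdc6 and Cdt1, the licensing factors, together had 0, 4 and 2 counts in knockout cells, against 0 and 2 in wild type cells, too few for any direction.

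**Figure D3:**
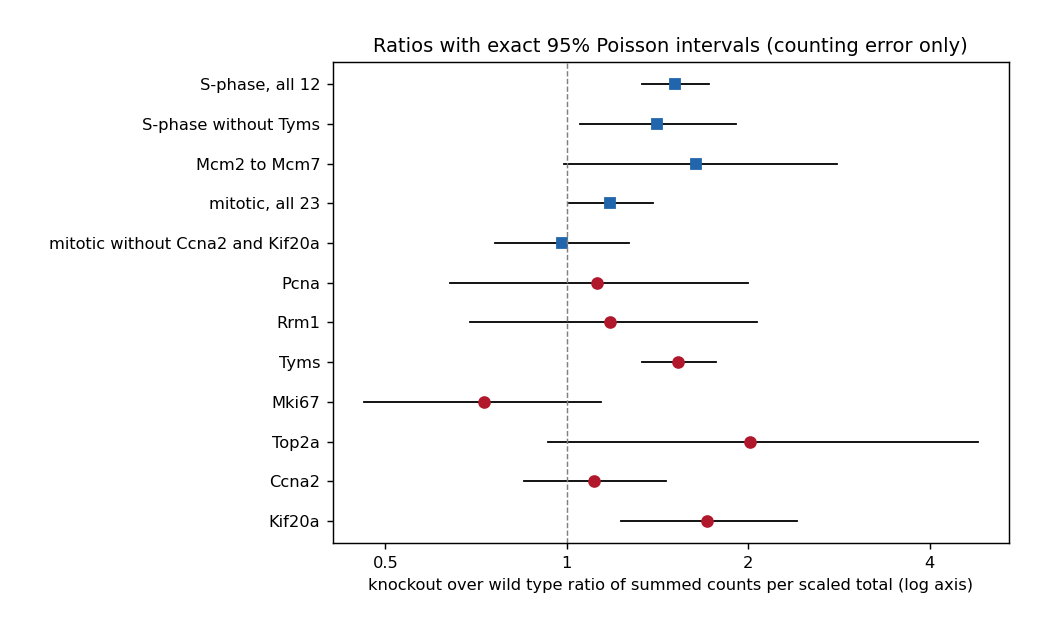
Ratio of summed counts, knockout over wild type, for the phase sums and the MCM genes (squares) and for the 7 tested members (circles), with exact 95% Poisson intervals on a log axis. The dashed line marks a ratio of 1. The intervals of both S-phase sums, the full mitotic sum, Tyms and Kif20a lie above 1, and those of the other rows include 1.

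Ccna2 (Entrez gene 12428, chromosome 3, 36564865 to 36573038) encodes cyclin A2, which acts in S phase and at the entry to mitosis. It had 62, 35 and 61 counts in knockout cells, against 46 and 40 in wild type cells. Knockout 2 was the lowest library and the other knockout libraries were the highest, so the groups overlapped. Ccna2 did not pass (log2 fold change 0.15, SE 0.24; edgeR adjusted p = 0.746), and its value was -0.03 without knockout 1. Of its exon bases 510 lie opposite exons of Exosc9, a subunit of the RNA exosome, which had 15, 14 and 13 counts in knockout cells, against 13 and 9 in wild type cells.

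Kif20a (Entrez gene 19348, chromosome 18, 34624624 to 34633277) encodes a kinesin of the central spindle that is needed for cytokinesis. It had 43, 41 and 58 counts in knockout cells, against 27 and 23 in wild type cells, with every knockout library above both wild type libraries. The level was 212.1 ± 20.4 CPM in the knockout (SD, n = 3) and 124.5 ± 3.3 CPM in the wild type (SD, n = 2). Kif20a rose 1.70-fold (log2 fold change 0.77, SE 0.28; edgeR adjusted p = 0.0372). That call was lost with DESeq2 (adjusted p = 0.156), without a filter on low counts (edgeR adjusted p = 0.102), and without knockout 3, wild type 1 or wild type 2 (edgeR adjusted p = 0.129, 0.223 and 0.239), with log2 fold changes of 0.68 to 0.79 in these settings. Kif20a has 1271 exon bases in all opposite another gene, the most among the members. That gene is Cdc23, a subunit of the anaphase-promoting complex, which had 31, 31 and 55 counts in knockout cells, against 15 and 18 in wild type cells. Cdc23 rose as well (log2 fold change 1.08, SE 0.31; edgeR adjusted p = 0.00663). No source used here gives the strand setting of the libraries, so reads from this shared stretch cannot be told apart. It covers 1271 of the 4338 exon bases of Kif20a, and how many reads fell in it is not known. Opposite exons of 100 bases or more were found for 6 of the 35 members (17.1%), the others being Mcm7, Plk1, Ube2c and Nusap1. The share was 34.3% among 3611 tested genes. These sets are unlike, because only 7 members were tested, Ccna2 and Kif20a among them. Without the 6 members that have opposite exons the mitotic sum had a ratio of 0.99 (0.75 to 1.31) and the S-phase sum 1.5 (1.32 to 1.7).

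**Figure D4:**
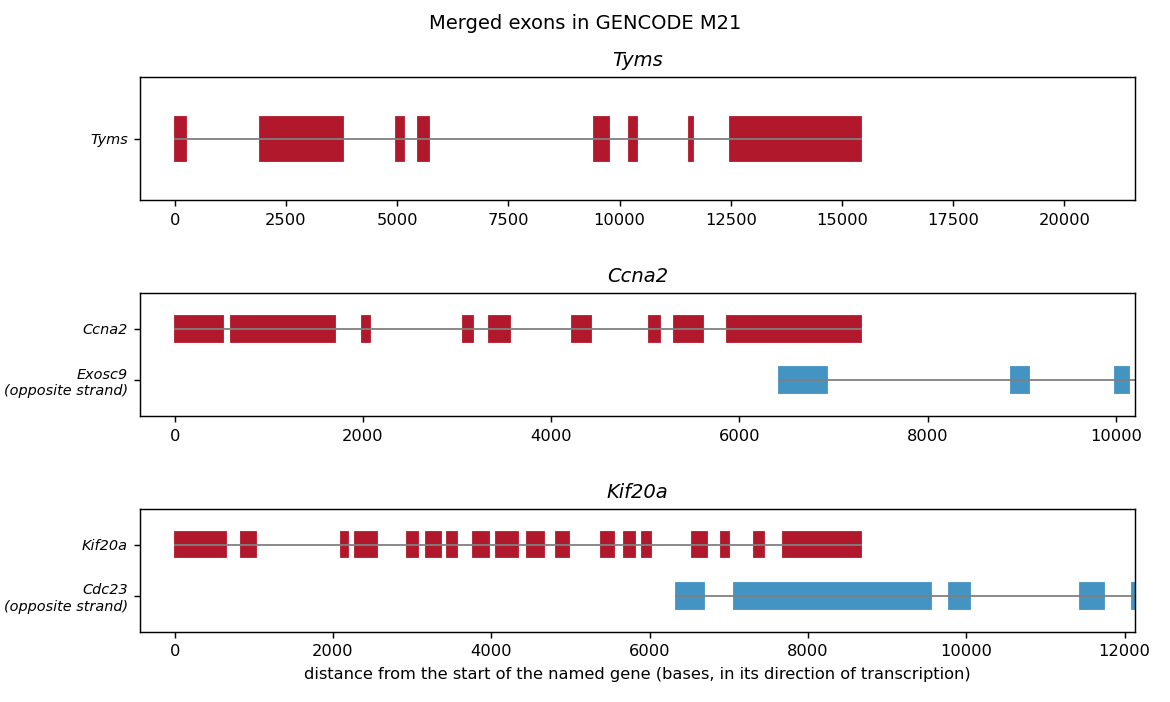
Merged exons of Tyms, Ccna2 and Kif20a (red) and of the genes whose exons lie opposite them (blue) in GENCODE M21, by distance in bases from the start of the named gene. Exosc9 and Cdc23 run on past the right edge. Exons at the 3′ end of Ccna2 and Kif20a overlap their neighbours over 510 and 1271 bases, and Tyms has no such neighbour.

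Mki67, whose product Ki-67 coats mitotic chromosomes and is the usual stain for dividing cells, had 15, 18 and 14 counts in knockout cells, against 20 and 19 in wild type cells. The knockout libraries were all lower, at 71.4 ± 14.5 CPM (SD, n = 3) against 97.5 ± 5.0 CPM in the wild type (SD, n = 2). The difference did not pass (log2 fold change -0.46, SE 0.37; edgeR adjusted p = 0.449). Top2a, the topoisomerase that untangles chromosomes, had 14, 10 and 6 counts in knockout cells, against 6 and 3 in wild type cells, with knockout 3 below wild type 1. It did not pass either (1.00, SE 0.68; edgeR adjusted p = 0.341). These 2 markers of dividing cells thus had values of opposite sign, and neither passed the test.

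Among the remaining mitotic genes the counts were too low to test. Ccnb1, Ccnb2 and Cdk1, the cyclin B kinase, together had 8, 6 and 2 counts in knockout cells, against 7 and 3 in wild type cells, a ratio of 0.96 (0.41 to 2.38, counting error only). Ccnb1 shares 1293 bases with its pseudogenes Gm12856 and Ccnb1-ps. Aurka, Aurkb and Plk1, the kinases of the spindle and midbody, had 8, 5 and 9 counts against 8 and 11 in the wild type, a ratio of 0.70 (0.36 to 1.36). Aurka alone ranged from 1 count in wild type 1 to 7 in wild type 2, the 2 ends of all 5 libraries. Plk1 had 6, 3 and 3 counts in knockout cells, against 7 and 3 in wild type cells.

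The checkpoint kinases and kinetochore proteins Bub1, Bub1b, Cenpe and Cenpf, with Cenpa at 0, summed to 3, 4 and 6 counts in knockout cells, against 4 and 2 in wild type cells. Bub1 had 0, 1 and 2 counts in knockout cells, against 4 and 2 in wild type cells, and Cenpe, a kinetochore motor, 1, 2 and 1 against 0 and 0. Cdc20 and Ube2c, which drive cyclin destruction, had 4 counts in the knockout and 4 in the wild type. Of the spindle proteins, Tpx2 and Nusap1 had 7, 7 and 5 counts in knockout cells, against 6 and 3 in wild type cells, a ratio of 1.27 (0.55 to 3.19). Kif11, which pushes spindle poles apart, and Kif23, a motor of the midbody, had 1, 2 and 5 counts in knockout cells, against 3 and 1 in wild type cells. Foxm1, the transcription factor of mitotic genes, had 4 counts in the knockout and 1 in the wild type, and Birc5, the survivin subunit of the Aurora B complex, 1 count in all. Over the 32 members other than Tyms, Ccna2 and Kif20a, 23 had a higher summed level in the knockout, 8 in the wild type and 1 was at 0. Several of these directions rest on very few counts, and a single count falls more often in 3 knockout than in 2 wild type libraries. The share of all genes at such counts was not taken, so the 23 are not read as a lean of the members. Of the 31 with counts, 1, Rrm2, had an interval that left out a ratio of 1, with no adjustment for the number of genes. Their sum was 486.1 ± 77.5 CPM in the knockout (SD, n = 3) and 417.5 ± 34.2 CPM in the wild type (SD, n = 2), a ratio of 1.15 (0.95 to 1.4).

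Of 6 further lists of cell cycle genes 27 genes could be tested, 3 rose and 2 fell, a share near the 16.3% of all tested genes, so the counts do not set these lists apart. Among G1 cyclins, their kinases and E2F factors, 5 of 20 were tested and 1 rose. This was Ccnd2, a D-type cyclin that carries growth signals to the cycle, with 29, 34 and 26 counts in knockout cells, against 13 and 8 in wild type cells (log2 fold change 1.35, SE 0.37; edgeR adjusted p = 0.0037). Its exons lie opposite 2 other genes over 740 bases. Ccnd1, the main D-type cyclin of fibroblasts, was at 0.40 (edgeR adjusted p = 0.284) and Ccne2, a cyclin of the entry to S phase, at 0.23 (edgeR adjusted p = 0.659).

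Among cell cycle inhibitors and RB family genes, 4 of 21 were tested, 1 rose and 1 fell. Btg1, an antiproliferative factor abundant in resting cells, had 26, 21 and 26 counts in knockout cells, against 60 and 39 in wild type cells, and fell (log2 fold change -1.16, SE 0.27; edgeR adjusted p = 0.000287). Ccng1, a target of p53, had 75, 68 and 76 counts in knockout cells, against 47 and 35 in wild type cells, and rose by 0.69 (SE 0.22; edgeR adjusted p = 0.0157). Of 39 replication genes 3 were tested, all of them subunits of the origin recognition complex. Of these, 2 were called, in opposite directions. Orc2 did not pass (log2 fold change 1.36, SE 0.56, edgeR adjusted p = 0.0761). Orc4 had 51, 32 and 44 counts in knockout cells, against 15 and 19 in wild type cells, and rose (log2 fold change 1.16, SE 0.31; edgeR adjusted p = 0.00209), with 582 exon bases opposite Acvr2a and Mbd5. Orc3 had 167, 168 and 197 counts in knockout cells, against 236 and 200 in wild type cells, and fell (-0.44, SE 0.13; edgeR adjusted p = 0.00807). Of these 5 calls, Ccnd2 alone held without wild type 1, Btg1 and Orc4 held without wild type 2, and Btg1, Orc3 and Orc4 held with DESeq2.

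The median log2 fold change of the tested genes was 0.23 for the G1 list, 0.14 for the inhibitors and 1.16 for replication, against 0.01 over all genes. The replication median is over 3 genes and is the value of Orc4. The whole replication list of 39 summed to 1288 to 1446 CPM in the knockout and 1515 to 1527 CPM in the wild type libraries. Most of that sum was Orc3, at a mean of 799.3 CPM in the knockout and 1086 CPM in the wild type. The other 3 lists had no member past the test, with medians of -0.49 for nucleotide supply, 0.02 for the mitotic genes and -0.17 for histones. Of 15 nucleotide supply and S-phase chromatin genes 2 were tested, Dck, a salvage kinase (-0.37), and Dnmt1, the maintenance DNA methyltransferase (-0.61). Of 59 further mitotic genes 7 were tested, and the 2 with the highest mean level, the tubulin genes Tubb5 and Tuba1b, had log2 fold changes of 0.55 (edgeR adjusted p = 0.0607) and 0.02. The whole list of 59 summed to 1249 to 1408 CPM in the knockout and 1100 to 1264 CPM in the wild type libraries, and these ranges overlapped. Of 16 histone genes 6 were tested, and the 2 with the highest mean level, H3f3b and H3f3a, which encode the replication-independent histone H3.3, had log2 fold changes of -0.16 and -0.17.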

How the data were processed

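Total RNA of 5 samples was made into Illumina libraries, per the labels. The authors deposited for each library an expected count, an FPKM (fragments scaled by gene length and library size) and a length per gene, per the file headers. Per the submitters' processing notes, the build was mm10 and the tools were RSEM, Bowtie2, StringTie and HISAT2, given without version or role. Of the listed counts 93.8% to 94.2% were whole within 0.005. Genes absent from a table were taken as 0, and expected counts were rounded.

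The test was edgeR 4.0.16 in R 4.3.3 with default low-count filter, TMM scaling, robust quasi-likelihood fit on genotype and Benjamini-Hochberg adjustment at 0.05, checked on simulated data. DESeq2 1.42.0 and limma 3.58.1 were alternatives. Poisson ratio intervals used SciPy 1.17.1. Opposite exons (GENCODE M21, 100 bases or more for a gene to be left out) came from bedtools 2.31.1 and shared sequence from blastn 2.17.0. Members and lists were chosen with earlier results of these data known. Named genes are all members, Arntl, and of each further list those past the test and the 2 tested genes with the highest mean level. Markers are named by the 2 highest. The other stromal markers and the macrophage markers that did not pass were named after their values were seen. Exosc9 and Cdc23, as the opposite genes, and Orc2 were also named after their values were seen.

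Replicates of a genotype correlated at 0.924 to 0.933 (Pearson, log CPM of tested genes) and differed beyond counting error. The labels do not tie them to separate animals, so p-values measure the spread between these libraries, which may be technical.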

Additional observations from a re-analysis of the deposited data

How the results depend on the processing

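The S-phase sum kept its direction in all alternatives: its log2 ratio, knockout over wild type, was 0.600 as reported, 0.541 with the deposited FPKM, 0.501 without Tyms (the same without Tyms, Ccna2 and Kif20a), and 0.558 to 0.643 with 1 library left out. The mitotic sum, at 0.246, came to -0.004 without Ccna2 and Kif20a and to 0.004 without members opposite another gene. These 2 settings were chosen after seeing the data. In the planned setting without Ccna2 alone, its member with the most counts, the mitotic sum had a higher log2 ratio than as reported. The drop without both genes thus came with leaving out Kif20a. The mitotic sum ran from 0.140 to 0.318 with 1 library left out. The log2 ratio of mitotic to S-phase sums was -0.353, and -0.180 without the member with the most counts of each phase. With 1 library left out it was -0.449 to -0.270. Called members numbered 2 as reported, 1 with DESeq2, 1 without a low-count filter, 1 with the replicate number as a block, and 0 to 2 with 1 library left out. Tyms was the 1 call in those first 3 settings. The 0 came without wild type 2, where edgeR left 2 members at an unadjusted p under 0.05. Called genes numbered 606, with 280 by DESeq2 and 298 to 610 with 1 library left out, and called genes of the further lists 5, with 3 by DESeq2 and 2 to 7 with 1 library left out. With 1 wild type library the lone sample is assumed to vary like the others. Libraries of the same number share nothing stated beyond it, and their deviations correlated at -0.008 and 0.026. With the replicate block 441 genes were called, and Kif20a was at 0.69 (edgeR adjusted p = 0.127). With 1 library left out, log2 fold changes ran from -0.03 to 0.35 for Ccna2, -0.06 to 0.43 for Pcna (both negative without knockout 1) and -0.22 to 0.99 for Rrm1 (negative without wild type 2), none of them called. Depth limits most members: a count of 0 in a library allows up to 12.1 to 15.9 CPM.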
